A study of Mus musculus with 18 samples.

Results

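The genes described here are the Ifi200 and Aim2 genes of the mouse, a family of DNA-binding receptors encoded side by side on chromosome 1. Members were taken by symbol from the gene count file: Ifi203, Ifi204, Ifi205, Ifi207, Ifi209, Ifi211, Ifi213, Mndal and Aim2, which are 9 of the 56748 genes listed. RNA was sequenced from RAW 264.7 cells, a mouse macrophage line grown in culture, in 18 libraries forming 6 groups of 3. Control cells received neither agent. TBHQ cells received tert-butylhydroquinone, a phenolic antioxidant known as an activator of the Nrf2 response, at 5 µM for 4 h. LPS cells received lipopolysaccharide, a bacterial ligand of TLR4, at 0.1 µg/mL for 12 h, and PIC cells received polyinosinic:polycytidylic acid, a mimic of viral double-stranded RNA, at 20 µg/mL for 12 h. LPS+TBHQ and PIC+TBHQ cells received TBHQ for 4 h and then the stimulus for 12 h, at the same doses. The study dissolved TBHQ in DMSO and names no group with the solvent alone among these libraries. TBHQ and its solvent therefore cannot be told apart in any comparison of cells with and without TBHQ. TBHQ alone was harvested at 4 h, while the study places its other groups, the untreated cells among them, in a 12 h scheme, so time in culture and TBHQ cannot be told apart in that comparison. Each group is 1 line, with no second clone or primary cells.

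Aim2 and the Ifi200 proteins carry HIN domains, which bind DNA, and most also carry a pyrin domain, through which they join other proteins. In macrophages Aim2 binds DNA in the cytosol and assembles an inflammasome with the adaptor Asc and caspase-1, while Ifi204, often treated as the mouse counterpart of human IFI16, is known for DNA sensing upstream of Sting. Many of these genes are known to be interferon-inducible, and the family differs in number between mouse strains.

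Library totals ran from 14423390 to 18851626 counts, and the floor of 3 counts used here as the limit of detection corresponds to 0.159 to 0.208 CPM (counts scaled to library depth). The cells carried the labelled identity. All 9 macrophage markers had a count in Control, with Lyz2, the lysozyme gene, the most abundant at a mean of 4531 FPKM (fragments per kilobase of gene, scaled to the library's depth). The summed FPKM of these markers ranged from 5713 to 6705 over the 18 libraries. Cd3e and Cd8a of T cells, Ncr1 and Klrb1c of NK cells, Siglech of plasmacytoid dendritic cells and Krt8 and Krt18 of epithelium stood at 0 counts in every library. The marker list of any of those types summed to at most 0.37 FPKM in a library. In bulk RNA, fewer cells expressing a gene and less RNA per cell cannot be told apart, and this holds for every level below.

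Reads can be shared between members because their sequences are alike. Of all 50-base words in a member's transcripts, the share that also occurs in a transcript of another gene was 0.74% for Aim2 and 7.29% for Ifi207. The other 7 members lay above 10%, so their counts are marked as uncertain in their split between paralogs. Ifi203 had 12.35%, Ifi213 15.63%, Ifi205 18.61%, Mndal 19.55%, Ifi204 20.02% and Ifi209 33.75%. Ifi211 stood apart at 72.79%, and at 46.39% even for 150-base words, the length of a read, with its largest overlaps in Ifi205, Ifi204 and Mndal. How the deposited counting treated reads that fit several genes is not stated, so values for Ifi211 in particular may hold reads of its neighbours. Counts summed over genes that share words were also tested, but such a sum holds the partners' own changes and is not used here for a single member.

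Aim2 (ENSMUSG00000037860), the inflammasome sensor, was the steadiest member. Its FPKM was 19.4, 22.4 and 20.5 in the 3 Control libraries, 20.5, 20.6 and 17.5 with LPS, and 22.5, 21.4 and 20.7 with PIC. TBHQ alone gave 17.9, 16.2 and 16.8, LPS+TBHQ 20.5, 20.6 and 18.1, and PIC+TBHQ 19.0, 20.5 and 19.8. TBHQ alone gave the lowest mean, 17.0 ± 0.90 (SD, n = 3), and PIC the highest, 21.5 ± 0.87, although Control is highest, at 21.9, on FPKM rebuilt from library totals. Each neighbouring pair of conditions in the order of means overlapped.

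Ifi204 (ENSMUSG00000073489), the DNA sensor linked to Sting, spread widely. Its FPKM was 13.9, 12.8 and 13.3 in Control, 38.3, 41.3 and 36.0 with LPS, and 52.7, 55.8 and 52.4 with PIC. TBHQ alone gave 5.45, 5.84 and 5.44, LPS+TBHQ 10.1, 12.8 and 11.3, and PIC+TBHQ 22.3, 23.4 and 21.7. The 6 conditions formed an order with no overlap between neighbours on the scale of normalised CPM: TBHQ, LPS+TBHQ, Control, PIC+TBHQ, LPS, PIC. On the FPKM printed here LPS+TBHQ and Control overlap, by a library at 12.8 in each. On the scale of normalised CPM the geometric mean with PIC was 9.47-fold that with TBHQ. Ifi203 and Ifi209 had the same order with no overlap on either scale.

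Ifi209 (ENSMUSG00000043263), a less abundant member, had 95, 83 and 103 counts in Control, 329, 327 and 255 with LPS, and 401, 444 and 473 with PIC. TBHQ alone gave 27, 27 and 37 counts, LPS+TBHQ 65, 48 and 76, and PIC+TBHQ 153, 162 and 147. Its mean FPKM was 1.63 ± 0.17 in Control, 0.508 ± 0.091 with TBHQ and 8.39 ± 0.57 with PIC (SD, n = 3).

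Ifi203 (ENSMUSG00000039997) had FPKM of 15.5, 15.2 and 16.9 in Control, 31.9, 31.7 and 28.5 with LPS, and 33.7, 34.2 and 32.2 with PIC. TBHQ alone gave 7.98, 7.54 and 8.0, LPS+TBHQ 14.5, 14.1 and 13.4, and PIC+TBHQ 17.8, 17.5 and 18. Both stimuli therefore stood above Control in every library, and both pretreated groups lay near the Control level.

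Mndal (ENSMUSG00000090272), a nuclear family member known for slowing cell growth, had FPKM of 15.9, 16.1 and 17.7 in Control, 27.9, 27.2 and 25.2 with LPS, and 37.1, 34.3 and 32.5 with PIC. TBHQ alone gave 9.57, 8.33 and 8.38, LPS+TBHQ 13.3, 12.0 and 11.8, and PIC+TBHQ 16.9, 20.2 and 17.9. Its order was that of Ifi204, except that Control and PIC+TBHQ overlapped.

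Ifi207 (ENSMUSG00000073490) was the most abundant member in Control per unit of length. Its FPKM was 39.4, 40.3 and 38.2 in Control, 44.7, 47.5 and 43.0 with LPS, 54.7, 58.4 and 59.2 with PIC, and 24.6, 26.0 and 25.5 with TBHQ. LPS+TBHQ gave 28.9, 28.8 and 26.6, and PIC+TBHQ 34.8, 36.0 and 35.9. It spanned a narrower range than Ifi204, and both pretreated groups lay below every Control library.

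Ifi211 (ENSMUSG00000026536) had FPKM of 5.73, 4.19 and 3.81 in Control, 16.0, 14.7 and 17.6 with LPS, and 18.2, 20.1 and 22.1 with PIC. TBHQ alone gave 2.76, 3.25 and 2.20, LPS+TBHQ 4.52, 5.50 and 4.25, and PIC+TBHQ 11.1, 7.89 and 8.28. Control replicate 1 was the highest of its group, and Control and LPS+TBHQ overlapped.

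Ifi213 (ENSMUSG00000073491) had FPKM of 2.48, 2.74 and 2.25 in Control, 2.21, 1.98 and 2.51 with LPS, and 2.96, 3.16 and 2.71 with PIC. TBHQ alone gave 1.90, 1.99 and 1.84, LPS+TBHQ 2.74, 2.63 and 2.72, and PIC+TBHQ 2.91, 2.58 and 2.37. Like Aim2 it stayed within a narrow band, and each neighbouring pair in its order overlapped.

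Ifi205 (ENSMUSG00000054203), known as a regulator of Asc expression, was close to the limit of detection outside PIC. Its counts were 6, 6 and 4 in Control, 2, 0 and 2 with TBHQ, 15, 15 and 3 with LPS, and 45, 30 and 55 with PIC. LPS+TBHQ gave 6, 4 and 2 counts and PIC+TBHQ 7, 7 and 2. It averaged 11.7 counts over the 18 libraries and passed the filter on low counts through its PIC libraries, so its presence among the tested genes carries no weight.

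**Figure D1:**
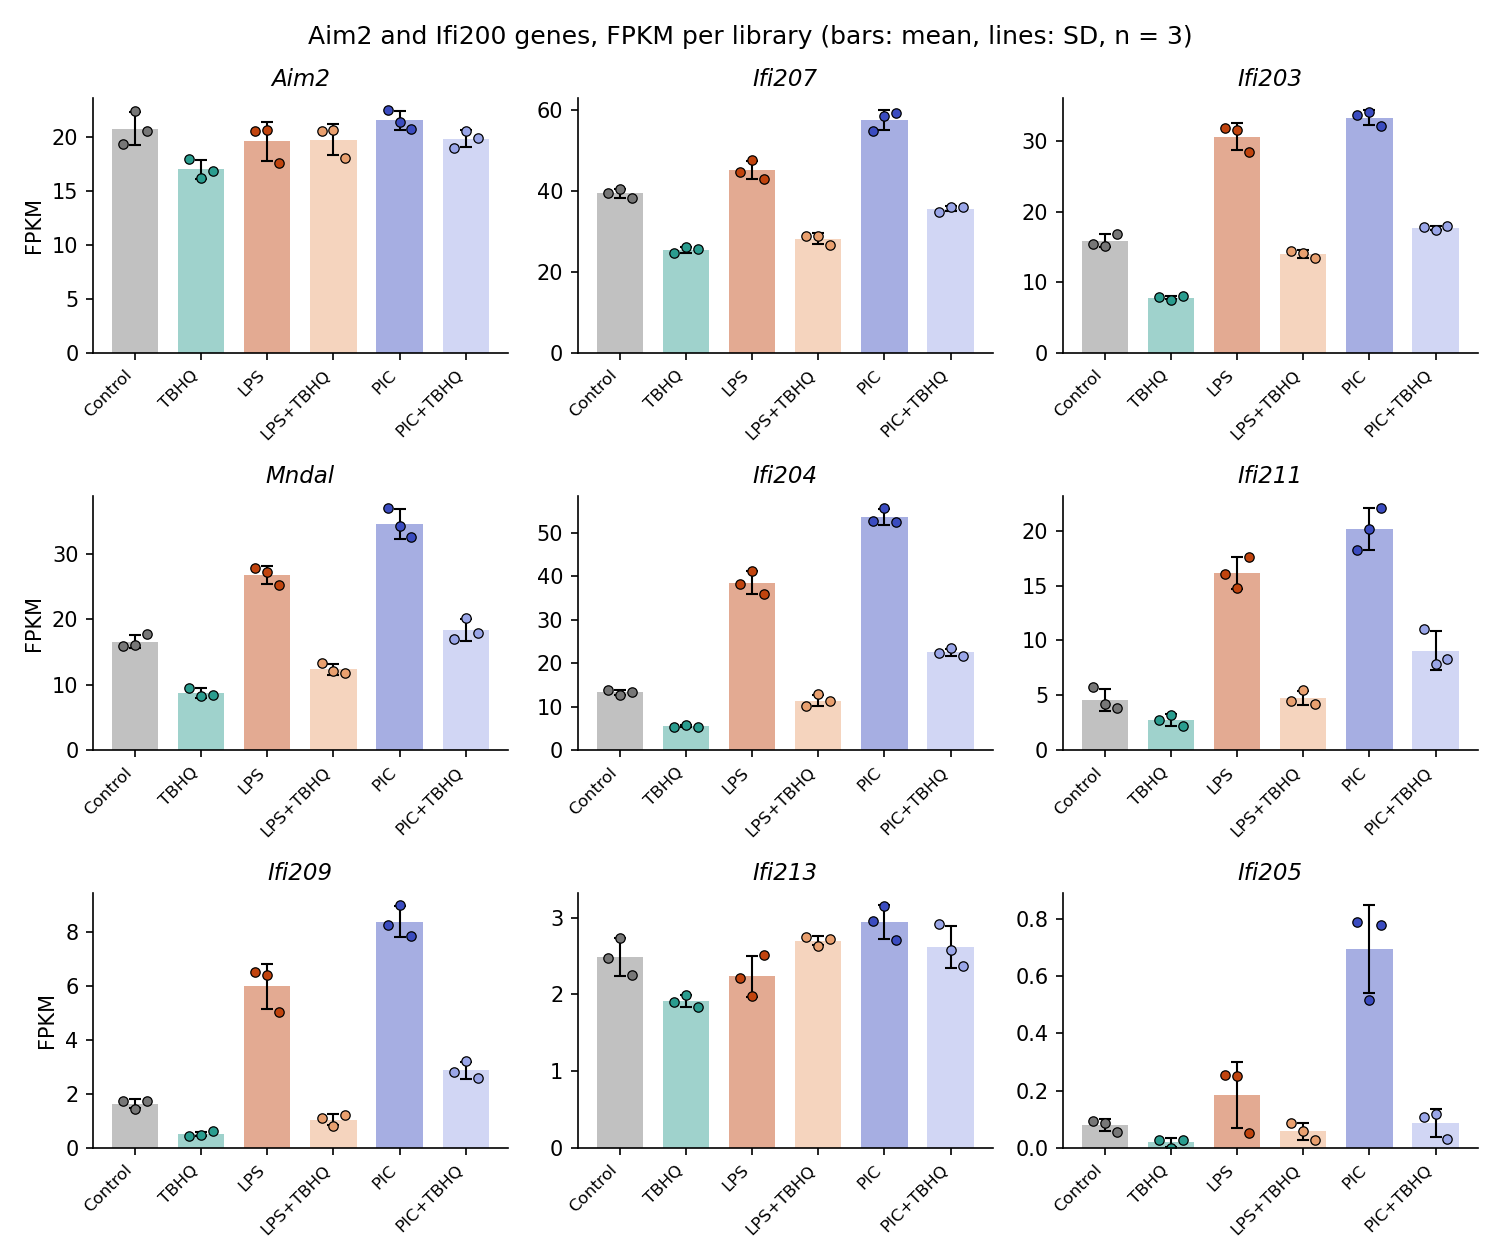
FPKM of the 9 genes in each of the 18 libraries, by condition. Points are libraries, bars are means and lines are the SD (n = 3), on linear axes that start at 0. TBHQ has the lowest mean and PIC the highest in all 9 panels, though on FPKM rebuilt from library totals PIC is highest in 6 (not Ifi203, Ifi213 and Aim2), while Aim2 stays between 16.2 and 22.5 FPKM in every library.

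All 9 members had their lowest mean with TBHQ alone and their highest with PIC on deposited FPKM and on normalised CPM, whereas on FPKM rebuilt from library totals TBHQ stayed lowest in 9 and PIC was highest in 6. On that scale Aim2 was highest in Control (21.9, with PIC 19.3), Ifi213 with LPS+TBHQ (2.71, with PIC 2.64) and Ifi203 with LPS. On normalised CPM LPS was second highest for 7 of them, and 4 (Ifi203, Ifi204, Ifi207 and Ifi209) had no overlap between any neighbours in their order. For Ifi204 this fails on deposited FPKM, and for Ifi203 and Ifi207 it fails on FPKM rebuilt from library totals. Added over the 9 genes, FPKM was 114.6 ± 0.55 in Control, 69.7 ± 0.98 with TBHQ, 185.1 ± 8.6 with LPS and 232.7 ± 3.6 with PIC (SD, n = 3). LPS+TBHQ gave a sum of 94.2 ± 4.3 and PIC+TBHQ one of 128.6 ± 2.5, on either side of the Control sum. Deposited FPKM was 0.943 to 0.951 times rebuilt FPKM in Control libraries and 1.051 to 1.056 times it with PIC+TBHQ. On rebuilt FPKM the PIC+TBHQ sum therefore lies nearer to that of Control. The make-up of the sum over the 9 genes shifted between conditions. Ifi207 held 34.3% of it in Control and 24.7% with PIC, Aim2 18.1% and 9.25%, and Ifi204 11.6% and 23.0%. With TBHQ alone Aim2 held 24.3%, its largest share, where the sum over the 9 genes was lowest. Aim2 itself was also lowest there, and family genes outside the 9, such as the abundant Ifi202b, are not in the sum.

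LPS was compared with Control to see what a bacterial signal did to the family. It raised Ifi209 by a log2 fold change of 1.87 ± 0.15 (SE, n = 3 per group; adjusted p = 8.16e-15), Ifi211 by 1.82 ± 0.19 (4.37e-14) and Ifi204 by 1.52 ± 0.07 (7.04e-22). Ifi203 rose by 0.94 ± 0.07 (5.83e-19) and Mndal by 0.68 ± 0.06 (1.71e-11). Ifi207 rose by 0.19 ± 0.05 (0.000463), a call that is lost when libraries are scaled by their totals alone. Adjusted p-values are edgeR's, by Benjamini-Hochberg over 13691 tested genes, and a gene is called below 0.05. Aim2 differed by -0.09 ± 0.10 (0.227), Ifi213 by -0.16 ± 0.13 (0.189) and Ifi205 by 1.20 ± 0.62 (0.0709), all not called, although scaling by library totals called Aim2 lower at -0.18 and Ifi213 at -0.25. Without LPS replicate 3, the library with 3 counts, Ifi205 was called at 1.65. In all, 6 of 9 members were called higher and 3 were not called, against 24.0% of tested genes called higher and 24.1% called lower. The groups did not overlap for 6 of the 8 members with a mean of at least 50 counts, against 53.8% of all tested genes without overlap. The median of these 8 better-covered members was 0.81, against -0.00 for all tested genes. The study's methods set a stricter threshold, an adjusted p below 0.01 and a log2 fold change above 2 in size, which 1.34% of tested genes passed upward with LPS. Ifi209 at 1.87 came nearest to it among the members, and Ifi211 passed it at 2.00 without Control replicate 1, so the count of members past it ranged from 0 to 1 over the libraries left out.

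PIC was compared with Control for the response to a viral mimic. Ifi209 rose by 2.34 ± 0.10 (adjusted p = 2.92e-18), Ifi211 by 2.13 ± 0.19 (1.58e-16) and Ifi204 by 1.99 ± 0.05 (6.42e-26). Ifi205 had 30 to 55 counts with PIC and 4 to 6 in Control, and since its PIC libraries alone brought it through the filter, its tests against PIC are not used as evidence. Ifi203 rose by 1.05 ± 0.05 (9.22e-21), Mndal by 1.04 ± 0.07 (6.32e-17) and Ifi207 by 0.53 ± 0.04 (4.55e-13). Ifi213 was called at 0.22 ± 0.10 (0.0472), yet its libraries overlap with Control and the call is lost in DESeq2, in limma on FPKM, without the count filter, with scaling by library totals, and without any one of 4 libraries (Control replicates 1 and 3, PIC replicates 1 and 2). Aim2 differed by 0.03 ± 0.07 (0.66), and its sign turned to -0.18, called lower, when libraries were scaled by their totals alone. Of the 8 better-covered members 7 were called higher, against 28.6% of tested genes called higher and 30.1% called lower. The groups did not overlap for 6 of the 8, against 62.7% of all tested genes without overlap. Their median was 1.05, against -0.01 for all tested genes. Of the 8, Ifi209 and Ifi211 passed the study's threshold, as did 2.7% of tested genes upward. Ifi204 at 1.99 crossed it as well without Control replicate 1, PIC replicate 1 or PIC replicate 3, so the count ranged from 2 to 3 over the libraries left out, and it was 3 with DESeq2, 1 with scaling by library totals and 0 with limma on log2(FPKM + 1).

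PIC was also set directly against LPS. Ifi204 was higher with PIC by 0.47 ± 0.07 (adjusted p = 1.22e-08) and Ifi209 by 0.47 ± 0.13 (7e-04). Ifi213 was higher by 0.38 ± 0.12 (0.00318), Mndal by 0.36 ± 0.07 (1.15e-05) and Ifi207 by 0.34 ± 0.06 (9.47e-08). Ifi211 was called at 0.31 ± 0.11 (0.0329), a call that is lost in DESeq2, in limma and with scaling by library totals, and without any one of 4 libraries (LPS replicates 1 and 2, PIC replicates 2 and 3). Ifi203 at 0.11 ± 0.06 (0.0602) and Aim2 at 0.13 ± 0.09 (0.136) were not called. Ifi203 depends on the setting, as DESeq2, RLE factors and fits without LPS replicate 1, LPS replicate 2 or PIC replicate 3 call it higher, while scaling by library totals turns it to -0.019. Ifi205 had 3 to 15 counts with LPS and 30 to 55 with PIC and is left out for the reason given above. Of the 8 better-covered members 6 were thus called higher with PIC, against 14.9% of tested genes called higher and 12.8% called lower. Scaling by library totals turned the balance of all tested genes, from 2035 called higher and 1752 lower to 985 and 4373, and left 5 of the 8 members called higher. The groups did not overlap for 7 of the 8, against 37.1% of all tested genes without overlap. The doses and the receptors of the stimuli differ, so the values describe these treatments and do not rank the pathways.

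TBHQ alone was compared with Control to see whether it moved the family before any stimulus. Ifi209 fell by 1.68 ± 0.16 on the log2 scale (adjusted p = 7.59e-09), Ifi204 fell by 1.26 ± 0.05 (4.07e-16) and Ifi203 fell by 1.02 ± 0.05 (7.15e-18). Mndal had a log2 fold change of -0.92 ± 0.08 (5.53e-13), Ifi211 of -0.74 ± 0.24 (0.000818) and Ifi207 of -0.63 ± 0.03 (1.45e-13). The members that barely answered the stimuli also fell, Ifi213 at -0.38 ± 0.09 (0.0034) and Aim2 at -0.29 ± 0.07 (0.000373). Ifi205 had 2, 0 and 2 counts against 6, 6 and 4, at or near the floor, so no fold is given and it was not called. Thus 8 of 9 members were called lower, against 14.8% of tested genes called lower and 14.2% called higher. The groups did not overlap for all 8 that were called, against 41.0% of all tested genes without overlap. The median of these 8 better-covered members was -0.83, against -0.00 for all tested genes. These falls were present at 4 h, with the limit on harvest time given above.

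LPS+TBHQ was compared with LPS to see how TBHQ given first changed the LPS-stimulated level. Ifi209 had a log2 fold change of -2.52 ± 0.21 (adjusted p = 6.41e-17), which left 17.5% of the LPS level. Ifi211 stood at -1.77 ± 0.13 (2.84e-13) and Ifi204 at -1.76 ± 0.11 (1.09e-22), with 29.4% and 29.6% of the LPS level left. Ifi203 at -1.13 ± 0.06 (1.92e-20) and Mndal at -1.12 ± 0.07 (3.26e-16) fell less, and Ifi207 at -0.68 ± 0.06 (1.07e-14) least of those that fell. Ifi205 was called at -1.67 ± 0.67 (0.0312) with overlapping libraries, and that call is lost in DESeq2, in limma, and without any one of 4 libraries (LPS replicates 1 and 2, LPS+TBHQ replicates 2 and 3). Aim2 did not move measurably, at 0.01 ± 0.10 (0.941). Ifi213 was called higher at 0.27 ± 0.10 (0.0425), but DESeq2, limma and 5 of the 6 fits that leave out a library (all but LPS replicate 3) do not call it. Of the 8 better-covered members 6 were called lower and 1 higher, against 12.2% of tested genes called lower and 11.7% called higher. The groups did not overlap for 7 of the 8, against 35.8% of all tested genes without overlap. The median of the 8 was -1.13, against 0.00 for all tested genes.

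PIC+TBHQ was compared with PIC in the same way. Ifi209 had a log2 fold change of -1.54 ± 0.11 (adjusted p = 3.53e-13), Ifi204 of -1.24 ± 0.04 (3.11e-19) and Ifi211 of -1.14 ± 0.17 (1.18e-09), which left 34.4%, 42.2% and 45.4% of their PIC levels. Ifi203 and Mndal both stood at -0.90, with SE of 0.03 and 0.09 (1.07e-17 and 2.39e-14), and Ifi207 at -0.68 ± 0.04 (5.95e-15). Ifi205 went from 30 to 55 counts down to 2 to 7, again with no weight given to its test. Ifi213 at -0.15 ± 0.11 (0.249) and Aim2 at -0.11 ± 0.05 (0.191) were not called, although every PIC library of Aim2 lay above every PIC+TBHQ library on the normalised scale. Of the 8 better-covered members 6 were called lower, against 15.5% of tested genes called lower and 15.8% called higher. Scaling by library totals shifted all tested genes from 2167 called higher and 2118 lower to 3398 and 1436. It also called 6 of the 8 members lower. The groups did not overlap for 7 of the 8, against 41.7% of all tested genes without overlap. The median of the 8 was -0.90, against 0.01 for all tested genes.

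**Figure D2:**
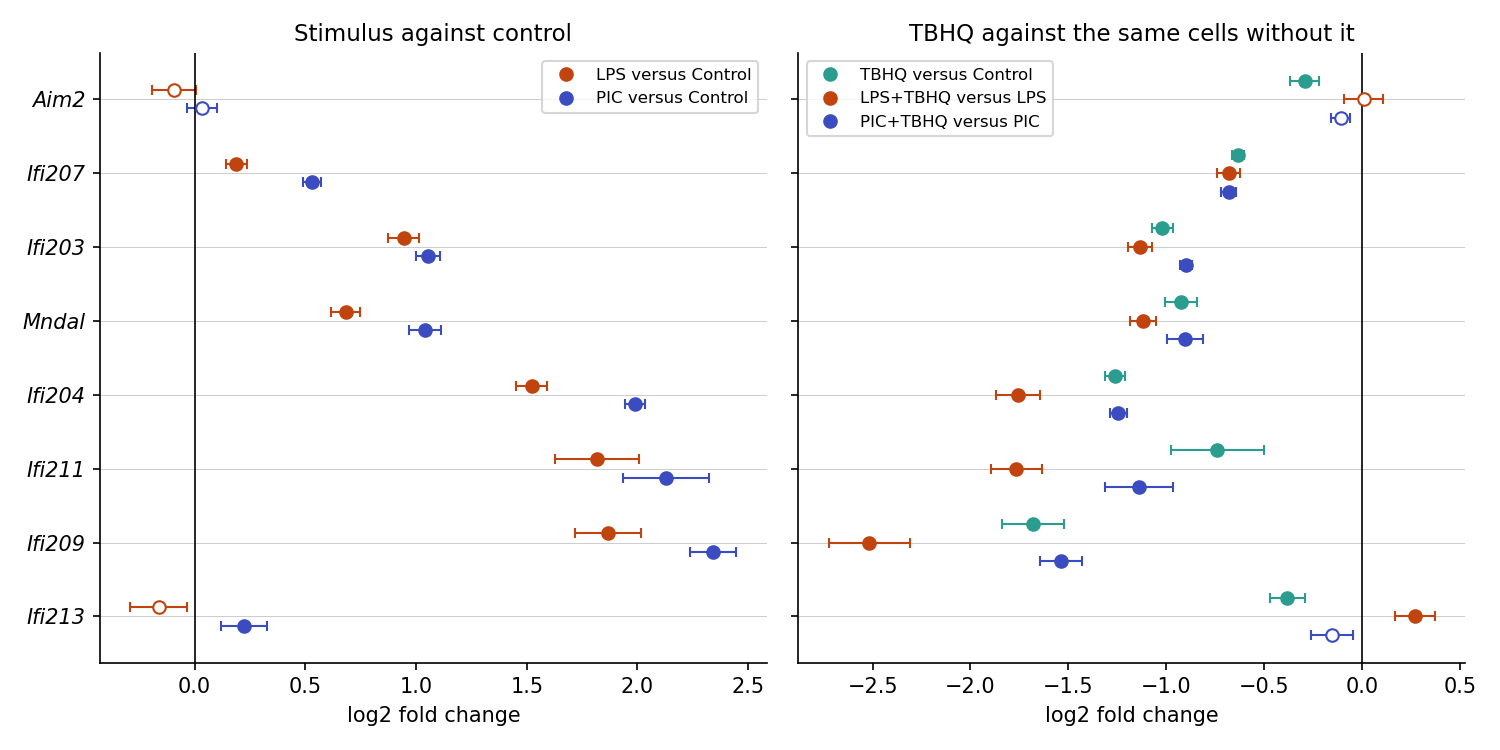
Log2 fold change of the 8 better-covered genes with its SE (n = 3 per group), for each stimulus against Control on the left and for TBHQ alone, before LPS and before PIC on the right. Filled points are called at an adjusted p below 0.05, and Ifi205 is left out because of its few counts. Ifi209, Ifi211 and Ifi204 sit farthest from 0 before LPS, at -2.52, -1.77 and -1.76, while Aim2 stays between -0.29 and 0.03 in all 5 comparisons (its value with PIC turns to -0.18 when libraries are scaled by their totals).

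Whether the TBHQ effect differed between LPS and PIC was tested as a difference of the 2 effects, PIC minus LPS. For Ifi204 the difference was 0.51 ± 0.12 on the log2 scale (adjusted p = 0.000172) and for Ifi209 0.98 ± 0.23 (0.00147). Both therefore fell by a larger fold under LPS. Their levels before TBHQ were higher with PIC, and a difference in absolute level was not tested. The Ifi209 call is lost in limma on FPKM, and DESeq2 gives no adjusted p for Ifi209, Ifi211 and Ifi213. Ifi211 at 0.63 ± 0.22 (0.0611), Ifi203 at 0.23 ± 0.07 (0.0538) and Mndal at 0.21 ± 0.11 (0.243) were not called. Ifi207 was at 0.00 ± 0.07 (0.998), Aim2 at -0.12 ± 0.11 (0.596) and Ifi213 at -0.42 ± 0.15 (0.119). Ifi205 is left out here too, as the difference uses its PIC libraries. Of the 8 better-covered members 2 were called, both positive, against 0.825% of tested genes called positive and 1.01% called negative. Other settings gain calls. Scaling by library totals calls 4, with Ifi203 at 0.28 and Ifi211 at 0.67 beside these. It also turns the balance of all tested genes, from 113 called positive and 138 negative to 235 and 74. Ifi203 is also called in DESeq2 and without LPS replicate 3, and Ifi211 without the count filter, with the compared groups alone, and without any one of 4 libraries (LPS replicate 2, PIC replicate 3, and replicate 2 of LPS+TBHQ or PIC+TBHQ). The sign was shared outside the members, as 15 of 25 interferon-stimulated genes were called positive, with a median of 0.43, and so were Ifi202b at 0.25 ± 0.04 (0.00357) and Ifi208 at 1.25 ± 0.33 (0.0433).

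The pretreated groups were also compared with Control, the group they share with the other comparisons, to see what level remained. With LPS+TBHQ, Ifi209 stood at -0.65 ± 0.19 (adjusted p = 0.00118), Ifi207 at -0.49 ± 0.04 (1.79e-11) and Mndal at -0.44 ± 0.07 (1.13e-06). Ifi204 at -0.23 ± 0.10 (0.00321) and Ifi203 at -0.19 ± 0.06 (0.00133) were lower too, though Ifi204 is no longer called without LPS+TBHQ replicate 1, at -0.16. Ifi211 at 0.05 ± 0.21 (0.824), Ifi213 at 0.11 ± 0.08 (0.386), Aim2 at -0.08 ± 0.09 (0.285) and Ifi205 at -0.48 ± 0.33 (0.603) were not called. So 5 of 9 members were called below the level of untreated cells after LPS, against 22.5% of tested genes called lower and 21.2% called higher. The study's threshold was passed upward by 0.84% of tested genes, and the highest member was Ifi213 at 0.11.

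PIC+TBHQ was set against Control in the same way. Ifi211 stood at 0.99 ± 0.23 (adjusted p = 2.23e-07), Ifi209 at 0.80 ± 0.13 (7.57e-06) and Ifi204 at 0.75 ± 0.05 (8.29e-13) against Control. Ifi203 was called higher at 0.15 ± 0.05 (0.00602), a call lost with scaling by library totals, and Ifi207 lower at -0.15 ± 0.03 (0.00429). Mndal at 0.14 ± 0.09 (0.0742), Ifi205 at 0.08 ± 0.45 (0.924), Ifi213 at 0.07 ± 0.12 (0.577) and Aim2 at -0.07 ± 0.07 (0.322) were not called, though Mndal is called without Control replicate 3 or PIC+TBHQ replicate 1 and Aim2 is called lower, at -0.22, with scaling by library totals. Hence 4 members were called higher and 1 lower, against 26.4% and 26.0% of tested genes, and the upward share of 1.76% of tested genes past the study's threshold compares with a highest member of 0.99.

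The members lie together. In the deposited annotation they span 173178445 to 173859376 on chromosome 1, an interval of 681 kb that holds or touches 22 listed genes, 14 of them protein coding and 15 tested. Aim2 on the plus strand opens it and Ifi205 on the minus strand closes it. Of the members Aim2 and Ifi209 are on the plus strand and the other 7 on the minus strand. The 6 tested genes of the interval that are not members are further family genes and pseudogenes. One of them, Ifi206, averaged 3.72 counts, near the floor, and is not counted here. The other 5 were called higher in 5 of 5 with LPS and 5 of 5 with PIC (24.0% and 28.6% of all tested genes). Called lower were 4 with TBHQ alone (14.8%), 5 with LPS+TBHQ against LPS (12.2%) and 5 with PIC+TBHQ against PIC (15.5%). Of these genes Ifi214, Ifi208, Ifi203-ps and Gm18445 share 14.59%, 20.89%, 26.33% and 12.97% of their 50-base words with other genes. Their counts are uncertain in the same way as those of the marked members and may hold reads of members. Ifi202b, which has HIN domains and no pyrin domain and is known to inhibit Aim2, was far more abundant than any member. Its FPKM was 96.8, 101.5 and 94.8 in Control, 211.4, 215.6 and 199.1 with LPS, and 265.1, 270.6 and 268.6 with PIC. With TBHQ alone it was 48.5, 47.3 and 47.8, so no group of these overlapped another. Its log2 fold change was 1.09 ± 0.05 with LPS, 1.44 ± 0.03 with PIC, -1.03 ± 0.03 with TBHQ, -1.07 ± 0.04 with TBHQ before LPS and -0.82 ± 0.02 with TBHQ before PIC, all called, and its words are shared with no other gene.

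Further genes of the interval had lower counts, and the likeness of their courses was not tested. Ifi208 had 25, 29 and 23 counts in Control, 69, 75 and 84 with LPS, 129, 142 and 162 with PIC, and 4, 2 and 7 with TBHQ alone. LPS+TBHQ gave 6, 11 and 15 counts and PIC+TBHQ 36, 44 and 45, so it fell from each stimulus with no overlap. The pseudogene Gm18445, beside Ifi205, had 50, 84 and 80 counts in Control, 361, 391 and 449 with LPS, and 89, 78 and 98 with LPS+TBHQ. The pseudogene Ifi203-ps had 76, 68 and 94 counts in Control, 140, 166 and 156 with LPS, and 100, 89 and 82 with LPS+TBHQ. Both pseudogenes, as counted and with the limit on shared reads given above, were therefore higher with LPS in every library, and Gm18445 more so. With LPS+TBHQ against Control, Ifi208 was called lower at -1.34. Ifi202b at 0.02, Gm18445 at 0.23 and Ifi203-ps at 0.11 were not called there. Aim2 overlaps Cadm3 on the opposite strand, but Cadm3 averaged 0.0556 counts.

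**Figure D3:**
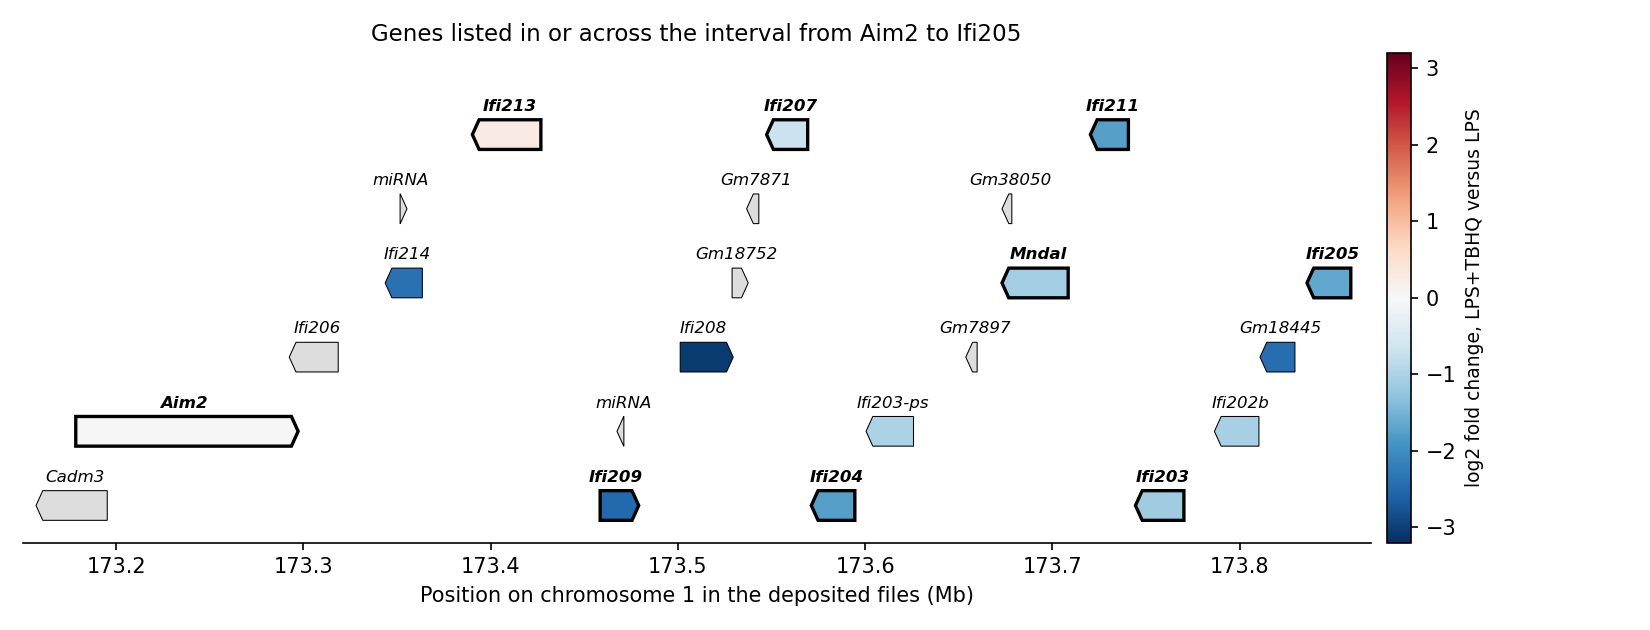
The genes that the files list in the interval of the members on chromosome 1, as arrows that point along their strand, with members in bold. Colour is the log2 fold change of LPS+TBHQ versus LPS, and grey marks genes that were not tested or, for Ifi206, averaged 3.72 counts. Aim2 at 0.01 and Ifi213 at 0.27 are the pale genes among the coloured ones, and Ifi208 at -3.07 is the darkest.

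Short motifs in front of the gene starts were set beside these levels. RefSeq promoter windows (GRCm38.p6, 250 bases before to 50 after the start) matched 8 of 9 members by symbol, in 10 windows, and Ifi204 had none. The core of the interferon regulatory factor element, GAAANNGAA, searched on both strands, was in 7 of the 10 windows and in 6 of the 8 members, against 8.56% of 32851 promoters. Ifi209 and Aim2 had no exact match, though the Ifi209 window holds taaatcgaa, which differs from the core in its first letter only. The gamma-activated site TTCNNNGAA was in 0 of the 10 windows, against 8.298% of promoters. The antioxidant response element core TGACNNNGC was in 3 windows, those of Ifi205, Ifi207 and Ifi211, against 12.392%. The motifs describe letters and not binding, and some windows of paralogs are alike, so the matches are not all independent. The windows of Ifi213 and Ifi208 are identical at 282 of 285 aligned bases (98.9%), and Ifi213 stood at -0.16 with LPS and 0.22 with PIC while Ifi208 stood at 1.73 ± 0.13 and 2.59 ± 0.11. Both genes share over 10% of their 50-base words, mostly with each other, so the split of reads behind these values is uncertain. These 2 are printed because near-identical windows go with unlike values as counted. Ifi209 and Aim2 are printed as the members with a window and no exact match. Before LPS, Ifi209 moved most among the better-covered members and Aim2 least. Whether the motif bears on the levels was not tested. Each is read 5′ to 3′ along the gene, with matches to GAAANNGAA in capitals.
Ifi213, chr1:173599223-173599522, minus strand: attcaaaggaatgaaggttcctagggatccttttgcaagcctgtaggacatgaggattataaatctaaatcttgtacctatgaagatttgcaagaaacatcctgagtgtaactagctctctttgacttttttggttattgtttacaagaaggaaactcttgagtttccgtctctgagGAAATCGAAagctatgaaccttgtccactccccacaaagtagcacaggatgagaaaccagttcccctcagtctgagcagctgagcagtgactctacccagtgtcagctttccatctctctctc
Ifi208, chr1:173673415-173673714, plus strand: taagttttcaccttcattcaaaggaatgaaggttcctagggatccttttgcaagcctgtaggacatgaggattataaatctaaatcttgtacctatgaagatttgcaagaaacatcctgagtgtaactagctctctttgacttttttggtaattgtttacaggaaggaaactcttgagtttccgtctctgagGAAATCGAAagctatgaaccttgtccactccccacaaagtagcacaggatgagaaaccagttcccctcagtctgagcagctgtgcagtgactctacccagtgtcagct
Ifi209, chr1:173630609-173630908, plus strand: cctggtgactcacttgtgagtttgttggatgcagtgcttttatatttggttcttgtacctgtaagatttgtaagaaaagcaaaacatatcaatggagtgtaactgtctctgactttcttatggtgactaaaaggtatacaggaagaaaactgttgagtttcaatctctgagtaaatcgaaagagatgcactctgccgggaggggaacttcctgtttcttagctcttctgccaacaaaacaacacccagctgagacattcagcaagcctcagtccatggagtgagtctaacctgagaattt
Aim2, chr1:173420354-173420653, plus strand: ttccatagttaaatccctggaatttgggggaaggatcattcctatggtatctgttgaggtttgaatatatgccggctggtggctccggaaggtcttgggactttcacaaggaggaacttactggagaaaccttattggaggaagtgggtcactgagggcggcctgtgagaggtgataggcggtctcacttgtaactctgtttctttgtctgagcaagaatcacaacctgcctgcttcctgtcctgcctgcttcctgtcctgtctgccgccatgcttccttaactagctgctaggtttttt
The positions of the deposited files differ from these, and the labels name the build in a way that joins 2 assemblies, so windows were matched by symbol and not by position. Shifted as Ifi209 is between the 2 sets of positions, the Aim2 window falls inside the deposited Aim2 gene. Starts of Aim2 upstream of that window were not searched.

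The partners of Aim2 were read from a list of inflammasome genes. Pycard, which encodes the adaptor Asc that links Aim2 to caspase-1, was nearly silent, with 7, 6 and 10 counts in Control and 1 to 10 counts in any library, and it was not tested. Casp1, the protease of the complex, was present at 19.0, 21.1 and 21.0 FPKM in Control. It rose by 0.62 ± 0.07 with LPS and 0.59 ± 0.06 with PIC, and fell by 0.24 ± 0.06 with TBHQ alone (adjusted p = 0.000483). TBHQ before LPS lowered it by 0.17 ± 0.05 (0.00633), and TBHQ before PIC left it at -0.05 ± 0.03 (0.501). Il1b, whose product caspase-1 matures, went from 1, 2 and 1 counts in Control to 1444, 1144 and 1079 with LPS and 3478, 3767 and 3533 with PIC. After TBHQ it had 200, 187 and 159 counts with LPS and 410, 372 and 430 with PIC, so the stimulated level of this product fell while Aim2 was not called in either comparison. Of the 10 tested genes of the list, 9 were called higher with LPS and 10 with PIC. With TBHQ before LPS 8 were called lower and 1 higher, with TBHQ before PIC 7 lower and 1 higher, and with TBHQ alone 5 lower and 2 higher. The shares of all tested genes called in each comparison are those given above, and they apply to this list and to those that follow.

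Genes of the cytosolic DNA sensing pathway, which Ifi204 is known to feed, were called in both directions, as were all tested genes. Of 15 tested, 6 were called higher and 4 lower with LPS (24.0% and 24.1% of all tested genes), with a median of -0.00. With PIC 7 were called higher and 6 lower (28.6% and 30.1%), with a median of 0.07. Cgas, the enzyme that makes the ligand of Sting, was lower, by a log2 fold change of -0.59 ± 0.06 with LPS and -0.77 ± 0.09 with PIC. Sting1 itself was at 0.20 ± 0.10 and 0.34 ± 0.08, both called. Zbp1, a sensor of Z-form nucleic acids, moved like Ifi204 and Ifi209, at 2.57 ± 0.10 with LPS, 2.97 ± 0.09 with PIC and -2.03 ± 0.05 with TBHQ before LPS. With TBHQ before LPS 4 of the 15 were called lower and 2 higher (12.2% and 11.7%), with TBHQ before PIC 5 lower and 2 higher (15.5% and 15.8%), and with TBHQ alone 3 lower and 3 higher (14.8% and 14.2%).

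Interferon signalling, known to induce Ifi200 genes, was read from 2 lists. Ifnb1, the interferon beta gene, had 12, 4 and 6 counts with PIC and at most 3 in any other library, and was not tested. Of 11 tested signalling genes 7 were called higher with LPS and 9 with PIC, and 4 were called lower with TBHQ alone, 7 with TBHQ before LPS and 7 with TBHQ before PIC. Stat2, a subunit of the factor that interferon activates, stood at 0.58 ± 0.07 with LPS, 0.87 ± 0.04 with PIC and -0.80 ± 0.06 with TBHQ before LPS. Of 25 interferon-stimulated genes outside the family, 24 were called higher with LPS and 25 with PIC, with medians of 0.70 and 1.56. With TBHQ alone 23 of the 25 were called lower and 1, Cxcl10, higher, and all 25 were called lower with TBHQ before LPS and with TBHQ before PIC, with medians of -0.53, -1.11 and -0.78. Usp18 is in both lists. Beside them the 8 better-covered members had medians of 0.81, 1.05, -0.83, -1.13 and -0.90 in those 5 comparisons. The lists share libraries with the members, and a difference between list and members was not tested.

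Members also differed in how closely they followed one another across the 18 libraries, which share the treatments. Pearson's r between a member and the mean of the other better-covered members was 0.97 for Mndal, 0.97 for Ifi204, 0.96 for Ifi203, 0.95 for Ifi209, 0.92 for Ifi207 and 0.91 for Ifi211. It was 0.64 for Aim2 and 0.53 for Ifi213, the members whose levels varied least. Outside the family the 5 genes most like the mean of the 8 were Lamp2, Bnip3, Eno2, Trim30a and Stat2, with r from 0.981 to 0.986. These values describe 6 groups and not 18 independent states, and over the 6 condition means 1 of the 5, Lamp2, was again among the closest.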

How the data were processed

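RNA of 18 RAW 264.7 libraries (6 groups of 3) was aligned with HISAT2 2.0.5 and counted with featureCounts 1.5.0-p3. The authors deposited raw counts per gene, FPKM values and a gene length in bases (other), and the positions of genes. Counts were tested in edgeR 4.0.16 (R 4.3.3) by quasi-likelihood, after filterByExpr (13691 genes tested) and TMM scaling, with 1 coefficient per condition, no pairing, and Benjamini-Hochberg adjustment over all tested genes. SE come from replicate log2 CPM (prior count 2), and levels are the deposited FPKM. The floor is 3 counts per library and covers counting error only. Words of 50 and 150 bases were compared over 141767 GENCODE M21 transcripts, and promoters came from RefSeq (GRCm38.p6). Alternatives were DESeq2 1.42.0, limma 3.58.1 on log2 FPKM, other scaling, filters and thresholds, a replicate block and leaving out each library; the sums over sharing genes were chosen after seeing the data. All 9 members are named, with the extreme and step-defining genes of each pathway list. Members and lists were chosen with earlier results of these data known.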

Additional observations from a re-analysis of the deposited data

Results flagged for a closer look

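Ifi204 and Ifi209 had a TBHQ effect that differed between the stimuli by a test of the difference itself in edgeR. The call of Ifi209 is lost in limma on FPKM, and DESeq2 gives no adjusted p for it. For Ifi204 the log2 effect of TBHQ in PIC minus that in LPS was 0.51, and for Ifi209 it was 0.98. The 2 were not alone, as 15 of 25 interferon-stimulated genes were called with the same sign, with a median of 0.43, and so were the family genes Ifi202b at 0.25 ± 0.04 (edgeR adjusted p = 0.00357) and Ifi208 at 1.25 ± 0.33 (0.0433). Leaving out any one of the 12 libraries of these groups gave 0.43 to 0.60 for Ifi204 and 0.83 to 1.11 for Ifi209. The levels from which TBHQ started also differed, with Ifi204 at 38.5 ± 2.7 FPKM with LPS and 53.6 ± 1.9 with PIC (SD, n = 3), and the part of that start in the difference was not tested.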

How the results depend on the processing

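Counts of members here are over all 9, Ifi205 included, although its PIC libraries alone brought it through the filter and its tests against PIC carry no weight. Of 355 member counts recomputed under the alternatives 330 kept within 1.5 times their value, and of 1296 recomputed log2 fold changes 1201 kept direction and side of the threshold, 37 lost their call, 23 gained one and 35 turned sign. Requiring a log2 fold change above 1 in size as well as an adjusted p below 0.05 can only lower a count. It left 3 members higher with LPS, 3 lower with TBHQ alone and 0 higher with LPS+TBHQ versus LPS. With PIC+TBHQ versus PIC 4 were lower (3 without Ifi205), and with PIC versus LPS 1 was higher (0 without Ifi205). Against Control, 0 were lower with LPS+TBHQ, and 0 were higher and 0 lower with PIC+TBHQ. A TBHQ effect that differs was left in 0, with Ifi209 just under the threshold at 0.98. Leaving out 1 library gave 0.83 to 1.11 for Ifi209, and scaling by total library size put 1 member above the threshold. Scaling by total library size, which shifts the median log2 fold change of all tested genes to -0.23 for PIC versus Control, -0.15 for PIC+TBHQ versus Control and -0.14 for PIC versus LPS, called 2 members lower with LPS (Aim2 and Ifi213), 1 lower with PIC (Aim2), 2 lower with PIC+TBHQ versus Control and 4 with a differing TBHQ effect (Ifi203 and Ifi211 in addition). With PIC versus Control it called 2379 genes higher and 6635 lower, where TMM called 3917 and 4120. With PIC versus LPS it called 985 and 4373, where TMM called 2035 and 1752. For LPS versus Control the counts were 2454 and 4558 (TMM 3283 and 3306). LPS+TBHQ had 2061 and 1401 against LPS (TMM 1601 and 1673) and 2281 and 4034 against Control (TMM 2896 and 3087). PIC+TBHQ had 3398 and 1436 against PIC (TMM 2167 and 2118) and 2364 and 5515 against Control (TMM 3615 and 3563). Under this scaling the differing TBHQ effect was called positive in 235 genes and negative in 74 (TMM 113 and 138). Under it Aim2 turned to -0.18 with PIC and -0.0033 with PIC versus LPS, Ifi203 to -0.019 with PIC versus LPS, Ifi211 to -0.013 with LPS+TBHQ versus Control, and Ifi205, Ifi213 and Mndal to -0.060, -0.079 and -0.013 with PIC+TBHQ versus Control. The single member called higher with LPS+TBHQ versus LPS, Ifi213, was called by 0 of DESeq2, both limma fits and an adjusted p below 0.01, and leaving out 1 library gave 0 to 1. Limma on log2(FPKM + 0.1) gave 1 member with a differing TBHQ effect, and limma on log2(FPKM + 1) left 0 members past the study's threshold with PIC. Leaving out 1 library gave 0 to 1 members past that threshold with LPS. It gave log2 fold changes of -0.014 to 0.090 for Aim2 with PIC, -0.065 to 0.070 for Aim2 with LPS+TBHQ versus LPS and -0.068 to 0.24 for Ifi211 with LPS+TBHQ versus Control. With PIC+TBHQ versus Control it gave -0.20 to 0.50 for Ifi205 and -0.015 to 0.14 for Ifi213, and for the Ifi207 difference of TBHQ effects, near 0, -0.056 to 0.020. That difference turned to -0.014 with RLE factors, -0.017 without a filter, -0.012 with the filter at a mean of 50 counts, -0.013 with the compared groups alone, -0.013 with DESeq2, -0.015 with limma on log2(FPKM + 1), -0.012 with limma on log2(FPKM + 0.1) and -0.022 summed over genes that share words. Those sums, chosen after seeing the data, turned Ifi213 to 0.16 with LPS and -0.13 with LPS+TBHQ versus LPS, but they hold the changes of Ifi208 itself and do not speak for Ifi213 alone. The replicate block changed the call of no member, with 81 of 81 log2 fold changes and 21 of 21 counts the same. Of 108 recomputed condition means 18 moved by more than 1 SD, all with FPKM rebuilt from library totals. DESeq2 gave no adjusted p for the differing effect of 4 members. Where not shown by the construction of a setting, the cause was not tested. Depth limits Ifi205, Pycard and Ifnb1, where a few reads decide a value.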
